A study of Mus musculus with 10 samples.

Results

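The Notch signalling and secretory fate genes described here were 10 genes chosen by symbol, namely the rows of the deposited count table named Dll1, Dll3, Dll4, Jag1, Jag2, Notch1, Notch2, Hes1, Hes6 and Atoh1. They made up 10 of the 54532 genes in the table, and all 10 were among the 15703 genes with more than 0.5 cpm (counts scaled to library size) in at least 3 libraries, the filter for testing. The libraries came from 5 litter-matched, 10-week-old Gucy2c-GFP mice of the outbred CD1/ICR stock, which carry a GENSAT transgene with GFP under the Gucy2c promoter. Gucy2c encodes guanylate cyclase C, a receptor of the intestinal epithelium. Dissociated small intestinal epithelium was sorted by GFP fluorescence into GUCY2Chi (high) and GUCY2Cmed (medium, also labelled Lo) cells, with 20000 cells in each of 5 libraries per group. All groups therefore carried the same transgene, received no treatment that the labels name, and were separated by fluorescence alone, so that the gate, rather than a cell type, defined each group. The numbers 2, 7, 12, 14 and 15 in the labels were taken as those of the mice.

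Notch signalling passes between touching cells. Delta and Jagged ligands on a cell bind Notch receptors on its neighbor, gamma-secretase releases the intracellular part of the receptor, and this part joins RBPJ and a Mastermind protein in the nucleus to switch on Hes genes. In the intestinal crypt, Hes1 represses Atoh1, the transcription factor gene that commits progenitors to the secretory lineages, so that cells receiving the signal tend toward the absorptive fate and cells presenting the ligands toward the goblet, Paneth, tuft or enteroendocrine fates. Hes6 encodes a related protein that counteracts Hes1.

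The libraries held 10903958 to 15307932 reads assigned to genes. Gucy2c itself was at 549 cpm or more in every GUCY2Chi library and at 483 cpm or less in every GUCY2Cmed library. The summed level of 17 enteroendocrine markers was 40590 to 162040 cpm in GUCY2Chi cells and 155 to 356 cpm in GUCY2Cmed cells, and that of 16 enterocyte markers was 3109 to 29932 cpm against 52300 to 72339 cpm. The GUCY2Chi libraries of mice 12 and 15 stood apart, with 29050 and 29932 cpm of enterocyte markers against at most 4159 cpm in the GUCY2Chi libraries of mice 2, 7 and 14. The GUCY2Chi library of mouse 2 stood apart in goblet markers (23549 cpm against at most 9844 cpm in the other GUCY2Chi libraries). Paneth markers were highest in the GUCY2Chi libraries of mouse 2 (46597 cpm) and mouse 14 (29675 cpm), against at most 10647 cpm in those of mice 7, 12 and 15. Forebrain neuron markers, which sorted epithelium should lack, summed to between 51.9 and 1598 cpm in GUCY2Chi and between 17.7 and 858 cpm in GUCY2Cmed libraries. In bulk libraries of this kind, fewer cells of a type and less RNA per cell cannot be told apart.

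Dll4 and Jag2, which encode ligands, were higher in GUCY2Chi cells and Hes1, the canonical target, was lower. Of the 10 genes, 2 were called higher and 1 lower (edgeR's quasi-likelihood test, Benjamini-Hochberg adjusted p under 0.01), where 13.9% of all genes tested were called higher and 8.79% lower. The libraries of the groups did not overlap for 1 of the 10 in the higher direction (Jag2) and 1 in the lower direction (Hes1), against 16.7% and 13.2% of all genes tested. The median log2 fold change of the 10 genes was -0.0075, beside 0.094 for all genes tested, so the set as a whole did not stand to either side and its members are described singly by role. The plot of cpm by library shows them all.

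**Figure D1:**
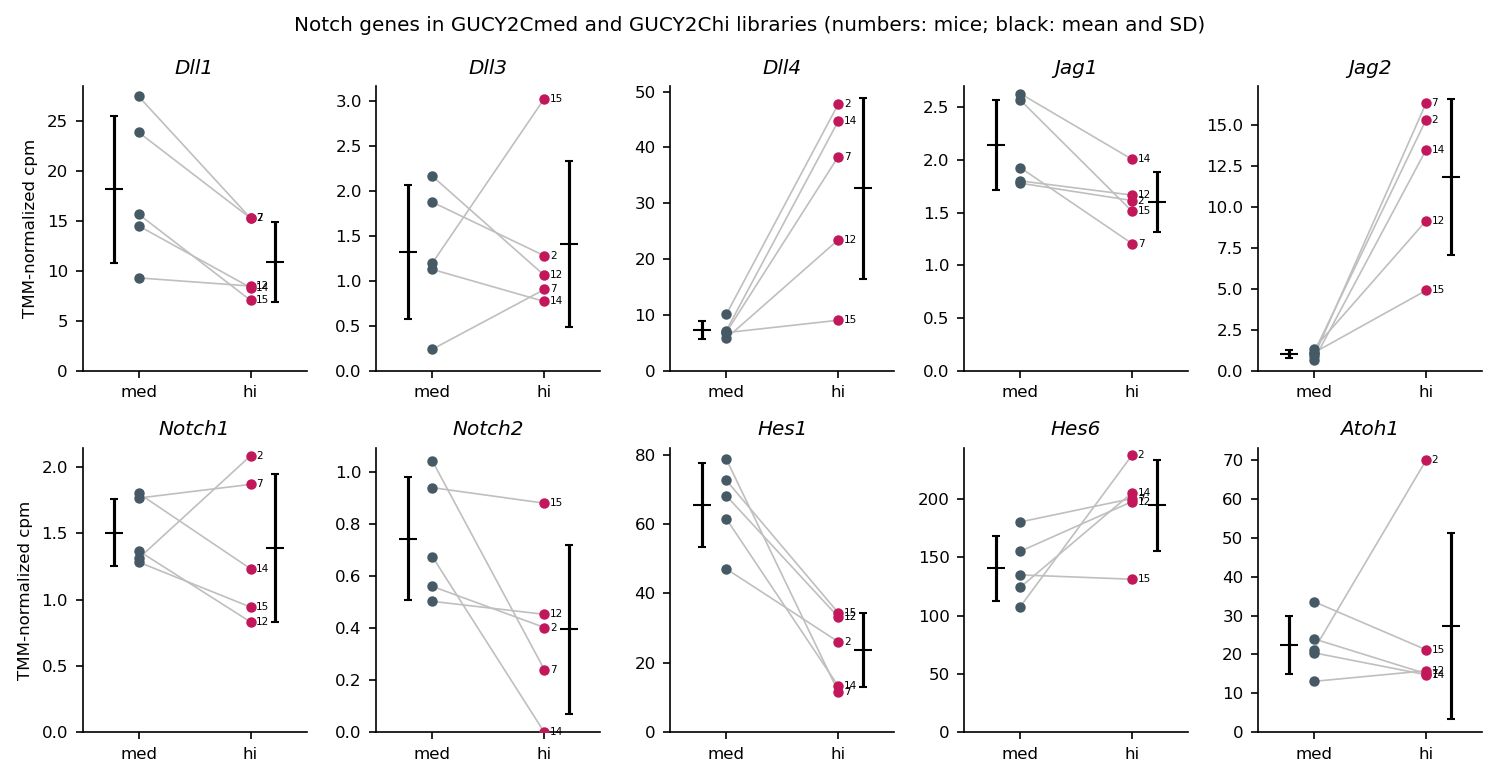
TMM-normalized cpm (vertical axis, linear, from 0) of the 10 genes in GUCY2Cmed (grey) and GUCY2Chi (red) libraries, with lines joining the libraries of a mouse, mouse numbers at the GUCY2Chi points, and the mean and SD of 5 libraries in black. Dll4 and Jag2 rise along every line and Hes1 falls along every line, whereas the mean of Atoh1 in GUCY2Chi cells is raised by mouse 2 alone.

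The promoters of Dll4 and Jag2 are shown because these were the ligand genes that rose, and that of Hes6 because its level was the highest of the 10. Each window holds the 250 bases before the RefSeq transcription start on GRCm38.p6, written 5′ to 3′ on the gene's own strand. The Dll4 window is chr2:119325534-119325783 (plus strand), the Jag2 window chr12:112929496-112929745 (minus strand) and the Hes6 window chr1:91414039-91414288 (minus strand). The start was the same as that of the deposited table for Dll4 and Hes6, and lay 281 bases inside the table's gene for Jag2. Capitals mark an N-box (CACNAG, the type of site that Hes proteins bind) in Dll4 and E-boxes (CANNTG, the type that Atoh1 and other basic helix-loop-helix activators bind) in Hes6.
Dll4: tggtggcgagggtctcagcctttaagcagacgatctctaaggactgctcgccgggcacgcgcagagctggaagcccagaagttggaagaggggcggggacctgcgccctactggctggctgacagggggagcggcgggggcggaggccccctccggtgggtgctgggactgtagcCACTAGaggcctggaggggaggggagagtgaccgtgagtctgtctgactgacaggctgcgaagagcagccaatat
Jag2: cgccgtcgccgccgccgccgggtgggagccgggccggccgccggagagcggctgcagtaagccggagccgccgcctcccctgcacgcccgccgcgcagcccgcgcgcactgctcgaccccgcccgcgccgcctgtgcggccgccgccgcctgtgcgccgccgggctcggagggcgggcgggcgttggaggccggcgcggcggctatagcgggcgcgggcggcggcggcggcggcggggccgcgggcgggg
Hes6: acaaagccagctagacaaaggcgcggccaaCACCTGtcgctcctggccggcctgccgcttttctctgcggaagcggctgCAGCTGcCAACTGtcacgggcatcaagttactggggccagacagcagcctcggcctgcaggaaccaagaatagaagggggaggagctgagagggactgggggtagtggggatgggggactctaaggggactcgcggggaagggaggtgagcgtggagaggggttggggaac

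On both strands of the Dll4 window there was a single N-box, which began 75 bases before the start site. Such a match was held by 36.7% of 32851 RefSeq promoter windows of this length. The Jag2 window, which is mostly G and C, held neither letter pattern. The Hes6 window held 3 E-boxes, beginning 220, 171 and 164 bases before the start, of which that at 171 was CAGCTG. A second RefSeq start of Hes6, 816 bases inside the gene, has its own window (chr1:91413223-91413472), not shown, with 1 E-box (CAGCTG) beginning 150 bases and 1 N-box beginning 237 bases before that start. N-boxes also lay in the Notch1 and Notch2 windows. E-boxes also lay in the windows of Dll1, Dll3 and Jag1, among them a CAGCTG for each of these genes. At least 1 CANNTG was found in 66.2% of all windows and at least 1 CAGCTG, which is also a CANNTG, in 13.0%. TGGGAA, the core letters that RBPJ recognizes, occurred in none of the 11 windows matched to 9 of the 10 genes, and in 21.6% of all windows. RefSeq had no entry for Hes1 in the promoter table. These matches describe letters in a window and not binding.

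Dll4 (Delta-like 4) is, with Dll1, a Delta ligand of the intestinal crypt. Its level was 4.43-fold higher in GUCY2Chi cells, with the same direction in 5 of 5 mice. It is annotated at chromosome 2 from 119325784 to 119335962 (ENSMUSG00000027314, GRCm38). The GUCY2Chi libraries of mice 2, 7, 12, 14 and 15 had 47.7, 38.3, 23.5, 44.7 and 9.07 cpm, normalized by edgeR's trimmed mean of M values (TMM). The GUCY2Cmed libraries of the same mice had 10.1, 6.90, 5.83, 7.21 and 6.85 cpm. Every GUCY2Chi library but that of mouse 15 lay above every GUCY2Cmed library, and mouse 15 fell below the GUCY2Cmed library of mouse 2, so the groups overlapped. The means were 32.7 ± 16.2 and 7.38 ± 1.61 cpm (SD, n = 5 each). Fitted over all libraries, the difference was 2.15 on the log2 scale, with a standard error (SE) of 0.39 and an adjusted p of 0.00169. The exact two-sided permutation test on log2 cpm gave p = 0.0159, where 5 libraries against 5 allow no p below 0.00794. The call was kept with each of the 10 libraries left out in turn. Without the GUCY2Chi libraries of mice 12 and 15 the log2 fold change was 2.59 (adjusted p = 6.81e-06).

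Dll4 is also a gene of endothelial cells. Of 13 endothelial markers, 6 passed the filter and 5 of these were called higher in GUCY2Chi cells, where 13.9% of all genes tested were called higher. Pecam1, Vwf and Cldn5 reached at most 0.225 cpm in GUCY2Cmed libraries and passed the filter through GUCY2Chi libraries alone. The filter therefore partly fixed this count, which cannot be weighed against the share of all genes. The 13 markers summed to 30.3 to 40.8 cpm in GUCY2Chi and 3.05 to 14.98 cpm in GUCY2Cmed cells. Cdh5, Tie1 and Robo4 had at most 3 counts in every library, and Kdr reached at most 0.360 cpm. Vwf was at 0.603 to 1.75 cpm in GUCY2Chi and at most 0.187 cpm in GUCY2Cmed libraries. Cldn5 was at 0.0630 to 3.01 cpm in GUCY2Chi and at most 0.0751 cpm in GUCY2Cmed libraries. Most of the sum came from Egfl7, Esam, Plvap and Pecam1. Its part in the Dll4 difference was not tested. The antisense transcript Gm14207 overlaps Dll4 on the other strand, at 1.46 to 11.4 cpm in GUCY2Chi and 0.642 to 5.71 cpm in GUCY2Cmed libraries. The sources used here do not say whether counting used the strand, so reads in the overlap cannot be told apart.

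Jag2 encodes a Jagged ligand and showed the largest difference of the 10 genes, 11.4-fold higher in GUCY2Chi cells. It lies on chromosome 12 from 112907819 to 112929776 (ENSMUSG00000002799). Its levels in GUCY2Chi cells of mice 2, 7, 12, 14 and 15 were 15.3, 16.3, 9.16, 13.5 and 4.91 cpm. In GUCY2Cmed cells they were 1.12, 0.883, 1.37, 0.676 and 1.11 cpm, from 9 to 19 counts per library. The lowest GUCY2Chi library, again that of mouse 15, exceeded the highest GUCY2Cmed library, and the groups did not overlap. The means were 11.8 ± 4.75 and 1.03 ± 0.263 cpm (SD, n = 5 each), a log2 difference of 3.51 (SE 0.37, adjusted p = 5.92e-05) and an exact permutation p of 0.00794, the smallest possible. All 10 fits with a library left out kept the call. Without the GUCY2Chi libraries of mice 12 and 15 the log2 fold change was 3.88 (adjusted p = 5.78e-06).

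The fold of each mouse showed Dll4 and Jag2 varying in the same order at its ends. The smallest fold of GUCY2Chi over GUCY2Cmed cells was in mouse 15 for both genes, 1.32 for Dll4 and 4.41 for Jag2. The largest was in mouse 14 for both, 6.20 for Dll4 and 20.0 for Jag2, whose GUCY2Cmed level was lowest in that mouse (0.676 cpm, 9 counts). The GUCY2Chi level itself was highest in mouse 2 for Dll4 (47.7 cpm) and in mouse 7 for Jag2 (16.3 cpm). Mouse 15 also had the lowest summed enteroendocrine markers among the GUCY2Chi libraries (40590 cpm) and mouse 14 the highest (162040 cpm). The plot against enterocyte markers shows that the GUCY2Chi libraries of mice 12 and 15, which held the most of those markers, had the lowest Dll4 and Jag2 and the highest Hes1 of their group. The part of enterocyte content in these differences was not tested. All 3 calls were kept without those libraries. That fit cannot address enterocyte content, because the GUCY2Chi libraries left in it held 3109 to 4159 cpm of the markers. The GUCY2Cmed libraries held 52300 to 72339 cpm.

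**Figure D2:**
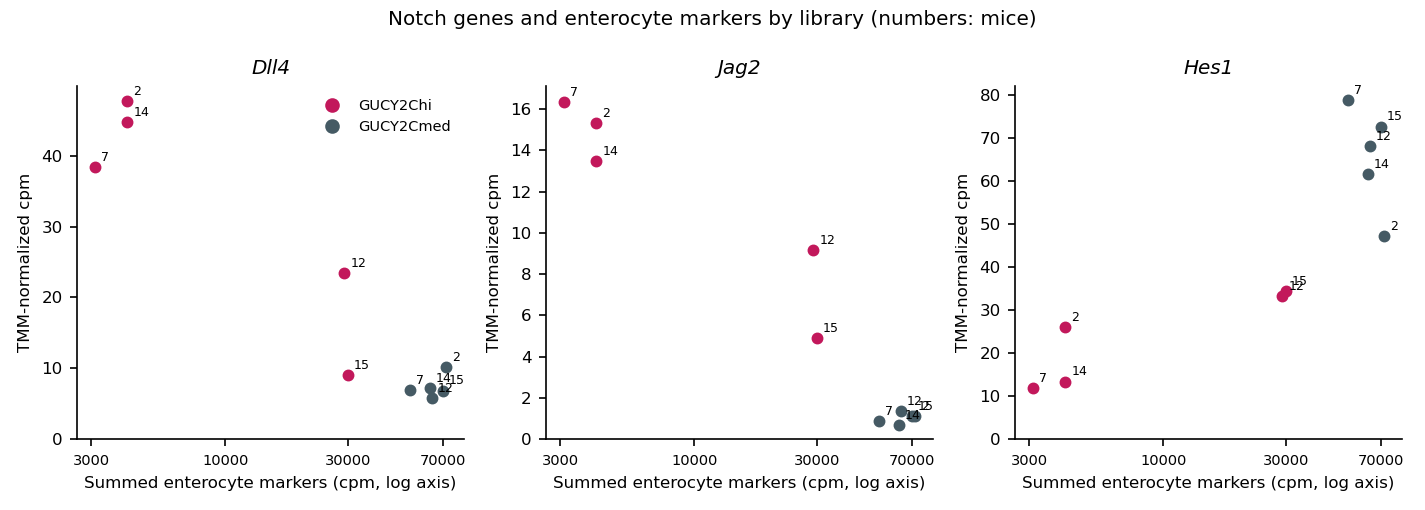
TMM-normalized cpm of Dll4, Jag2 and Hes1 (vertical axes, linear, from 0) against the summed cpm of 16 enterocyte markers (horizontal axis, log scale) in each GUCY2Chi (red) and GUCY2Cmed (grey) library, with mouse numbers. The GUCY2Chi libraries of mice 12 and 15, at 29050 and 29932 cpm of markers, lie between the other GUCY2Chi libraries and the GUCY2Cmed libraries for Jag2 and Hes1; for Dll4, mouse 12 lies between them and mouse 15 within the GUCY2Cmed range.

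Dll1, the other Delta ligand of the crypt, did not rise with Dll4. It had 15.3, 15.3, 8.48, 8.33 and 7.05 cpm in GUCY2Chi cells of mice 2, 7, 12, 14 and 15, and 27.4, 23.8, 9.29, 14.5 and 15.7 cpm in GUCY2Cmed cells. All 5 mice had less in GUCY2Chi cells, but the libraries overlapped, because mice 2 and 7 were high in both groups. The log2 fold change was -0.74 (SE 0.33, adjusted p = 0.100), past neither the threshold nor, with p = 0.0714, the exact permutation test at 0.05. With the mouse as replicate block the adjusted p was 0.0318 in edgeR. The ratio of Dll4 to Dll1 cpm within a library was 1.29 to 5.37 in GUCY2Chi and 0.290 to 0.628 in GUCY2Cmed cells, with no overlap. It was lowest among GUCY2Chi libraries in mouse 15. This ratio compares libraries and not the amounts of the genes, which differ in length.

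Jag1 and Dll3 were scarce in both groups. Jag1, the second Jagged ligand, was between 1.21 and 2.004 cpm in GUCY2Chi and between 1.78 and 2.63 cpm in GUCY2Cmed libraries, from 19 to 35 counts, and was lower in 5 of 5 mice. Jag1 differed by -0.42 on the log2 scale (SE 0.30, adjusted p = 0.297). The direction was therefore opposite to that of Jag2, which the test called, but Jag1 itself did not pass. Dll3, a divergent Delta protein that does not activate Notch on neighbors, ranged from 0.771 to 3.02 cpm in GUCY2Chi and from 0.241 to 2.16 cpm in GUCY2Cmed libraries, from 3 to 48 counts. At a log2 fold change of 0.10 (SE 0.57, adjusted p = 0.927) no difference of Dll3 was detected. In each group Dll3 was highest in the library with the most forebrain neuron markers, GUCY2Chi of mouse 15 (1598 cpm) and GUCY2Cmed of mouse 12 (858 cpm). The lowest Dll3 and fewest markers coincided in GUCY2Cmed cells (mouse 7, 17.7 cpm) but not in GUCY2Chi cells (mice 14 and 2). The part of neural RNA in the Dll3 levels was not tested.

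The receptors were near the filter. Notch1 ranged from 0.833 to 2.08 cpm in GUCY2Chi and from 1.28 to 1.80 cpm in GUCY2Cmed cells, and Notch2 from 0 to 0.882 cpm and from 0.504 to 1.04 cpm. Notch1 had a log2 fold change of -0.11 (SE 0.36, adjusted p = 0.857), which turned to 0.19 when libraries were scaled by size alone. Its counts of 11 to 31 per library may include reads of the antisense transcript 0610009E02Rik, at 0.403 to 2.23 cpm. Notch2 was lower in 5 of 5 mice, but its log2 fold change of -0.88 had a standard error of 0.68 (adjusted p = 0.337), since the libraries held 0 to 14 counts. The test called neither receptor in either direction, neither had an unadjusted p under 0.05, and DESeq2 and limma-voom likewise called 0 of the 2. With standard errors of this size a change of the receptors could have been missed.

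**Figure D3:**
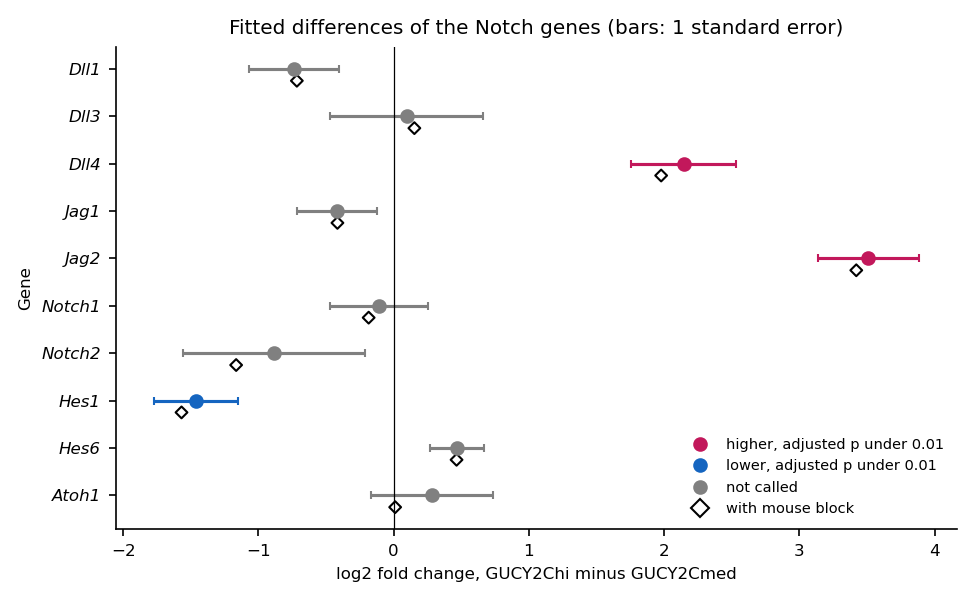
Log2 fold change of GUCY2Chi over GUCY2Cmed cells (horizontal axis) for the 10 genes, with bars of 1 standard error, red for genes called higher, blue for lower and grey for those not called, and open diamonds for the fit with the mouse as block. Dll4 (2.15), Jag2 (3.51) and Hes1 (-1.46) lie farthest from 0, and the diamonds of all 10 genes stay on the same side as the main estimates.

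Hes1, the target whose protein represses Atoh1, was 2.76-fold lower in GUCY2Chi cells. The gene lies on chromosome 16 from 30064384 to 30067796 (ENSMUSG00000022528). The GUCY2Chi libraries of mice 2, 7, 12, 14 and 15 had 26.1, 11.8, 33.2, 13.3 and 34.4 cpm, and the GUCY2Cmed libraries 47.1, 78.7, 68.1, 61.5 and 72.6 cpm. The highest GUCY2Chi library, of mouse 15, lay below the lowest GUCY2Cmed library, of mouse 2, and the groups did not overlap. The means were 23.8 ± 10.7 and 65.6 ± 12.1 cpm (SD, n = 5 each), a log2 difference of -1.46 (SE 0.31, adjusted p = 0.00385) and an exact permutation p of 0.00794. The fold of GUCY2Chi over GUCY2Cmed cells ranged from 0.149 in mouse 7 to 0.554 in mouse 2.

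The call of Hes1 was close to the threshold. With the mouse as replicate block the log2 fold change was -1.57, and the adjusted p was 0.0110 in edgeR and 0.00599 in limma-voom. It missed the threshold without the GUCY2Chi library of mouse 2 (adjusted p = 0.0135), without the GUCY2Cmed library of mouse 12 (0.0137) and without that of mouse 15 (0.0150), and was called in the other 7 fits. Without the GUCY2Chi libraries of mice 12 and 15 it was -1.92 (adjusted p = 5.08e-04). Markers of dividing cells were lower in GUCY2Chi cells, as Hes1 was, whereas the sums of stem cell markers overlapped between the groups. In mouse 2 the stem cell sum was higher in GUCY2Chi (1163 cpm) than in GUCY2Cmed cells (969 cpm). Proliferation markers summed to 133 to 337 cpm in GUCY2Chi and 420 to 962 cpm in GUCY2Cmed cells, with 12 of 15 called lower, and stem cell markers to 355 to 1163 cpm and 969 to 1370 cpm, with 1 of 10 called lower and 1 higher, where 8.79% of all genes were called lower and 13.9% higher. Their part in the Hes1 difference was not tested.

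Hes6 was abundant in every library. It lies on chromosome 1 from 91411483 to 91414038 (ENSMUSG00000067071). In GUCY2Chi cells of mice 2, 7, 12, 14 and 15 it had 238, 200.3, 198, 205 and 131 cpm, and in GUCY2Cmed cells 108, 180.2, 155, 124 and 135 cpm. The GUCY2Chi libraries of 4 mice lay above every GUCY2Cmed library, whereas mouse 15 lay at the level of its own GUCY2Cmed library, and Hes6 was higher in 4 of 5 mice. Its difference of 0.47 on the log2 scale (SE 0.20) did not pass the threshold (adjusted p = 0.0825, exact permutation p = 0.0556). With limma's sample weights (voomWithQualityWeights) it was 0.63 and passed (adjusted p = 0.00781).

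The ratio of Hes6 to Hes1 separated the groups. It was 9.10, 17.0, 5.95, 15.4 and 3.81 by cpm in GUCY2Chi cells of mice 2, 7, 12, 14 and 15, and between 1.86 and 2.29 in GUCY2Cmed cells. The GUCY2Cmed libraries differed little among themselves, and the GUCY2Chi libraries of mice 12 and 15 came nearest to them. The lower Hes1 (log2 fold change -1.46) made up more of this gap than the higher Hes6 (0.47), which did not pass the test.

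Atoh1, the gene at the head of the secretory program, did not differ between the groups beyond the spread of the libraries. It lies on chromosome 6 from 64729125 to 64731245 (ENSMUSG00000073043). Its level was 69.8, 15.1, 15.8, 14.8 and 21.2 cpm in GUCY2Chi cells of mice 2, 7, 12, 14 and 15, and 21.3, 24.0, 13.1, 20.4 and 33.6 cpm in GUCY2Cmed cells. The GUCY2Chi library of mouse 2 was far above all others, and the remaining 4 lay within the GUCY2Cmed range. The log2 fold change was 0.28 (SE 0.45, adjusted p = 0.675), and it turned to -0.35 (adjusted p = 0.339) without that library. Atoh1 was higher in 2 of 5 mice and lower in 3.

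Per-length levels, which allow genes to be compared with each other, were taken from the deposited FPKM, in which fragment counts are divided by gene length and by depth. In GUCY2Chi cells Hes6 was the highest at 202 ± 40.9 FPKM (SD, n = 5), followed by Hes1 at 36.4 ± 16.6, Dll4 at 16.1 ± 8.09, Atoh1 at 14.3 ± 12.4, Jag2 at 11.6 ± 5.21 and Dll1 at 10.2 ± 4.47 FPKM. Dll3, Notch1, Jag1 and Notch2 were at 1.15, 1.03, 0.493 and 0.0725 FPKM. Neighbors in this order overlapped in their libraries, except that Hes6 stood above Hes1, Dll1 above Dll3, and Jag1 above Notch2. In GUCY2Cmed cells the order was Hes6 (121 ± 25.8 FPKM), Hes1 (82.7 ± 14.2), Dll1 (13.98 ± 6.39), Atoh1 (9.53 ± 2.71), Dll4 (3.04 ± 0.828), Notch1 (0.902 ± 0.171), Dll3 (0.872 ± 0.514), Jag2 (0.831 ± 0.218), Jag1 (0.546 ± 0.0833) and Notch2 (0.109 ± 0.0334). Here Hes6 and Hes1 overlapped, Hes1 stood above Dll1, Atoh1 above Dll4, Dll4 above Notch1, and Jag1 above Notch2. Jag2 thus ranked 8 of 10 in GUCY2Cmed cells and 5 of 10 in GUCY2Chi cells, beside Dll1 and Atoh1.

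The lengths behind the deposited FPKM were shorter than the gene lengths in the same table for 9 of the 10 genes, for example 1129 against 6965 bases for Jag2 and 1519 against 14232 bases for Notch1. With the table's lengths, Hes6 stayed the highest and Notch2 the lowest in both groups, and in GUCY2Chi cells Atoh1 moved above Hes1 and Dll4, and Jag2 to rank 6, below Dll1 with an FPKM recomputed from those lengths of 1.89 against 14.3 for Atoh1.

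**Figure D4:**
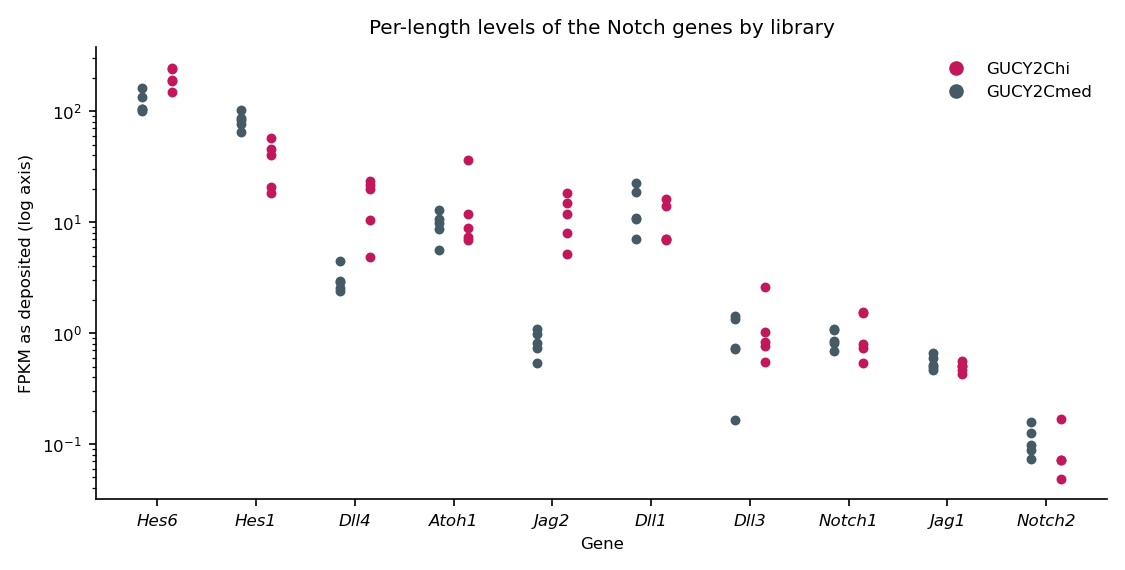
FPKM as deposited (vertical axis, log scale) of the 10 genes in each GUCY2Chi (red) and GUCY2Cmed (grey) library, ordered by the mean in GUCY2Chi cells; 1 GUCY2Chi library with Notch2 listed at 0 cannot be drawn on this scale. Jag2 moves from about 0.831 FPKM in GUCY2Cmed to 11.6 FPKM in GUCY2Chi cells, and both receptors stay below 2 FPKM in all libraries.

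Other Notch pathway genes moved in both directions. Of 51 further genes of the pathway, 46 passed the filter, Notch3, Hes3, Hes7, Hey2 and Heyl did not, and 7 were called higher (15.2%) and 4 lower (8.70%), close to the 13.9% and 8.79% of all genes tested. Their median log2 fold change was 0.18, beside 0.094 for all genes. The counts were 7 and 6 with DESeq2 and 6 and 5 with limma-voom. The plot by role names the genes called.

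Among other ligands and receptors, 2 of 4 tested were called higher, beside 13.9% of all genes tested. Dner, an EGF-repeat membrane protein described as a Notch ligand in the nervous system and the most abundant of this role, was at 42.2 to 134 cpm in GUCY2Chi and 0.401 to 8.35 cpm in GUCY2Cmed cells (15.8-fold, adjusted p = 8.32e-04). Dlk1, a Delta-like protein without the domain that activates the receptor, was at 7.998 to 51.3 cpm against 0.0803 to 1.30 cpm (33.9-fold, adjusted p = 1.68e-04). Of 8 enteric neuron markers, 5 passed the filter and 1 of these was called higher, where 13.9% of all genes tested were called higher. The 8 markers summed to 42.9 to 84.4 cpm in GUCY2Chi and 1.20 to 11.3 cpm in GUCY2Cmed cells, while forebrain markers summed to 51.9 to 1598 cpm and 17.7 to 858 cpm. The median log2 fold change of the 5 tested enteric neuron markers was 2.86, while Hand2, another of the 8, had at most 3 counts in every library. The part of neural RNA in the Dner difference was not tested. Notch4 did not pass, at 0.804 ± 0.183 cpm against 0.831 ± 0.252 cpm (SD, n = 5).

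Of 5 enzymes that attach sugars to the EGF repeats of Notch, 2 were called higher, where 13.9% of all genes tested were called higher. Mfng, the Manic Fringe glycosyltransferase, was at 2.90 to 15.5 cpm in GUCY2Chi and at 0 to 1.01 cpm in GUCY2Cmed cells, a fitted 24.3-fold difference (adjusted p = 5.17e-04). Among GUCY2Cmed libraries only that of mouse 12 exceeded 0.5 cpm of Mfng, which thus passed the filter through the GUCY2Chi libraries. Poglut1, the O-glucosyltransferase, was 2.74-fold higher (24.2 ± 4.55 against 8.84 ± 1.37 cpm, SD, n = 5, adjusted p = 2.16e-04). The libraries of both genes did not overlap between groups, as was so in the higher direction for 16.7% of all genes tested. Rfng, the most abundant of the enzymes by its mean over all libraries, did not pass at 20.6 ± 1.35 against 31.9 ± 10.7 cpm (adjusted p = 0.0372), nor did Pofut1, the O-fucosyltransferase, at 7.62 ± 1.81 against 12.5 ± 1.67 cpm (adjusted p = 0.0175). Rfng and Pofut1 both had less in GUCY2Chi cells of 5 of 5 mice, and their libraries did not overlap between groups either. In the lower direction this held for 13.2% of all genes tested.

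The steps between ligand and nucleus showed few calls, beside 13.9% of all genes tested called higher and 8.79% lower. None of 5 genes for ligand endocytosis was called, although 1 had an unadjusted p under 0.05 in the higher direction, and DESeq2 and limma-voom called 0 as well. Neurl3, the most abundant, was at 155 ± 33.5 against 209 ± 43.7 cpm (adjusted p = 0.118). Of 9 sheddase and gamma-secretase genes, Aph1c alone rose (4.92-fold, adjusted p = 0.00509), from 1 to 41 counts per library. Aph1c was at 0.0803 to 0.856 cpm in GUCY2Cmed libraries and passed the filter through the GUCY2Chi libraries. Its near-identical neighbor Aph1b could share reads with it, its call was lost with the mouse as block in edgeR (0.0126), and it was lost without the GUCY2Chi library of mouse 2 or 14 or the GUCY2Cmed library of mouse 2, 12 or 14.

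In the nuclear complex, Maml3 was the single gene of 10 called higher, beside 13.9% of all genes tested. This Mastermind coactivator was 5.08-fold higher (7.52 ± 4.54 against 1.48 ± 0.407 cpm, adjusted p = 0.00319), though not past the threshold with the mouse as block in edgeR (0.0103), and limma-voom without the block did not call it either. Rbpj, the DNA-binding partner of Notch, was at 3.41 ± 0.287 against 4.05 ± 1.02 cpm (adjusted p = 0.498). Snw1, the most abundant of this role, was at 65.0 ± 13.2 against 57.9 ± 5.18 cpm (adjusted p = 0.467).

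Inhibitors and turnover genes held 3 of the 4 pathway genes that fell. Of the 10 genes of this role, 3 were called lower and 1 higher, beside 8.79% and 13.9% of all genes tested. Numb, an adaptor that restrains Notch and is the most abundant of the 10 genes of this role, was at 24.7, 20.6, 27.1, 18.7 and 29.1 cpm in GUCY2Chi cells of mice 2, 7, 12, 14 and 15 and at 101, 90.8, 45.5, 62.9 and 79.0 cpm in GUCY2Cmed cells. The groups did not overlap, and Numb was 3.15-fold lower (adjusted p = 3.27e-04). Dtx3l, a Deltex family ubiquitin ligase, was 2.70-fold lower (13.6 ± 1.78 against 36.7 ± 7.89 cpm, adjusted p = 2.06e-04). Itch, a ubiquitin ligase that acts on Notch among other proteins, was 1.83-fold lower (21.2 ± 4.66 against 38.8 ± 6.46 cpm, adjusted p = 0.00431). The call of Itch was lost with the mouse as block in edgeR (0.0119), with scaling by library size alone, and in 6 of the 10 fits with a library left out, those without the GUCY2Chi library of mouse 2, 7 or 14 or the GUCY2Cmed library of mouse 2, 14 or 15. Dtx3 rose 4.68-fold (16.01 ± 6.33 against 3.41 ± 1.95 cpm, adjusted p = 0.00708), but the block gave adjusted p = 0.0414 in edgeR and 0.0237 in limma-voom, and the same 6 left-out libraries ended its call. Nrarp, an inhibitor that Notch itself induces, had less in GUCY2Chi cells of 5 of 5 mice (4.89 ± 1.97 against 11.5 ± 3.37 cpm) and narrowly missed the threshold (adjusted p = 0.0116).

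Of the other Hes and Hey genes, 3 of 7 could be tested. Hes2 had 2.08, 2.11, 8.55, 2.47 and 15.4 cpm in GUCY2Chi cells of mice 2, 7, 12, 14 and 15 and 22.9 to 34.9 cpm in GUCY2Cmed cells. As for Hes1, the groups did not overlap, and mice 12 and 15 were the highest of the GUCY2Chi libraries. Hes2 was 4.52-fold lower (adjusted p = 0.00904), a call that was kept only without the GUCY2Chi library of mouse 15 among the 10 fits with a library left out, the highest adjusted p being 0.0305. RLE factors, upper-quartile factors and scaling by library size alone ended the call as well. Hes5 and Hey1 did not pass, at 0.927 ± 0.422 against 0.595 ± 0.369 cpm and 2.73 ± 2.02 against 2.10 ± 1.37 cpm.

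**Figure D5:**
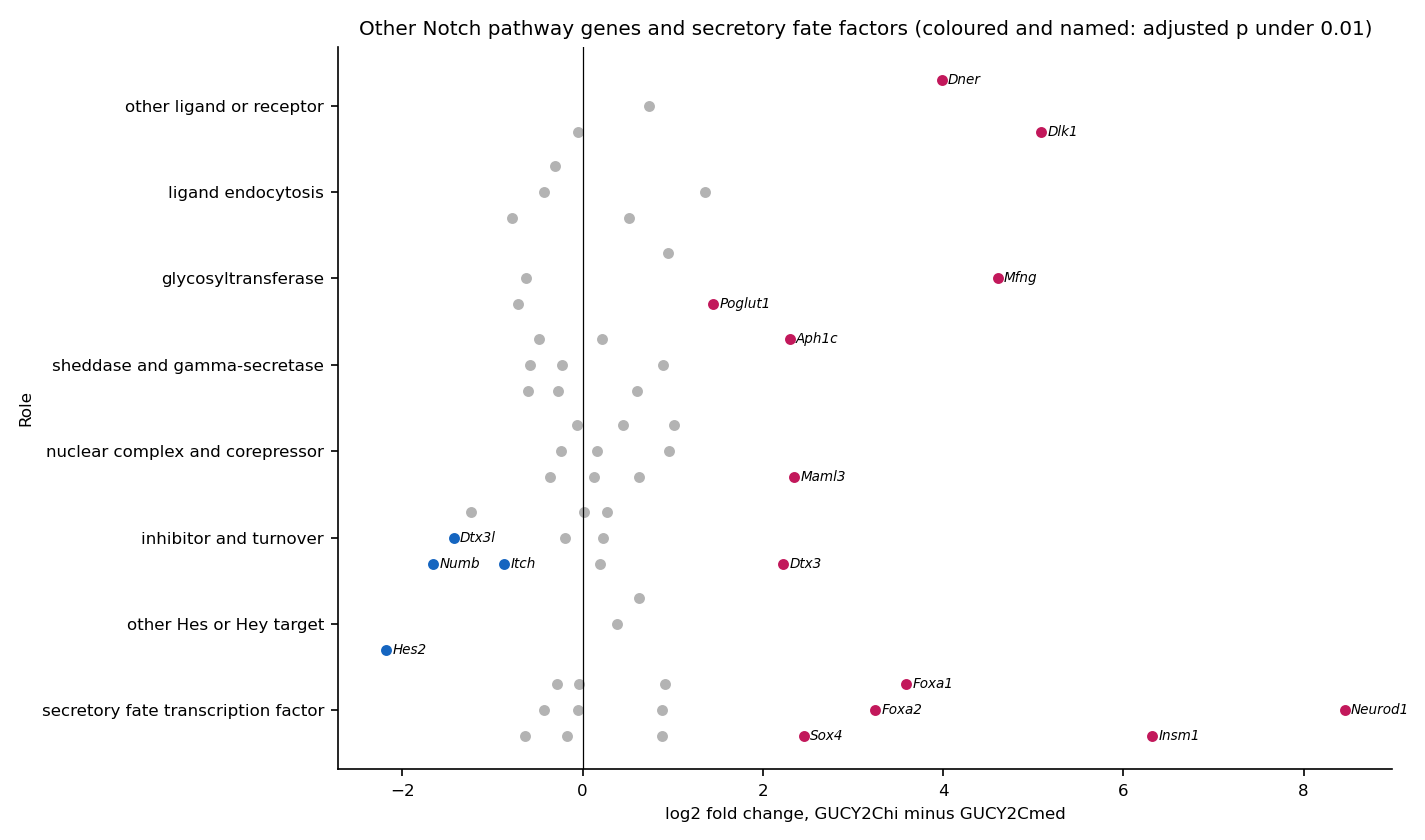
Log2 fold change of GUCY2Chi over GUCY2Cmed cells (horizontal axis) of 46 further Notch pathway genes and 14 secretory fate transcription factors, in rows by role, with points spread vertically for legibility only; genes called higher are red, lower blue, others grey. The inhibitor row holds Numb, Dtx3l and Itch on the left, and the secretory fate row holds Neurod1 at 8.45 on the right.

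Several transcription factors of the secretory lineages rose. Of 14 secretory fate factors, all tested, 5 were called higher (35.7%, against 13.9% of all genes) and none lower by edgeR, DESeq2 or limma-voom, nor did any have an unadjusted p under 0.05 in the lower direction. Their median log2 fold change was 0.88. All 5 are factors of the enteroendocrine lineage or are expressed in it. Neurod1, the most abundant, was at 297 to 1208 cpm in GUCY2Chi and 0.562 to 4.28 cpm in GUCY2Cmed cells (351-fold, adjusted p = 5.87e-06). Insm1 was 79.95-fold higher (adjusted p = 8.86e-06), Foxa1 12.1-fold (2.14e-05), Foxa2 9.49-fold (2.95e-04) and Sox4 5.49-fold (2.55e-04). All 5 calls were kept in each fit with a library left out.

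Neurog3, the transient factor that starts endocrine commitment upstream of Neurod1, was low in both groups, at 2.70 ± 0.764 cpm in GUCY2Chi and 2.78 ± 1.25 cpm in GUCY2Cmed cells (SD, n = 5, adjusted p = 0.954). The goblet factor Spdef was at 12.3 ± 9.16 against 12.7 ± 2.72 cpm, and Gfi1, which acts below Atoh1 in goblet and Paneth cells, at 1.48 ± 1.15 against 1.81 ± 0.578 cpm. Klf4, another goblet factor, was at 18.7 ± 10.8 against 25.3 ± 13.1 cpm and Sox9, of stem and Paneth cells, at 30.6 ± 16.4 against 34.4 ± 10.3 cpm. None of these 5 passed the test, and all had libraries that overlapped between the groups.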

How the data were processed

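RNA was measured in 10 libraries, 5 per group, grouped by the sample labels. The authors deposited unnormalized read counts for each gene, whole numbers that the sequencing provider obtained after alignment with STAR. The FPKM values, as deposited by the authors, are fragment counts divided by gene length and by depth, and the length used is not given in the sources used here. The labels name mm9, but the positions in the table overlap those of GRCm38 for 99.9% of 37624 symbols and those of NCBIM37 for 9.66% of 28329, and are given as GRCm38. The authors' comparison, made with limma 3.40.6 and edgeR 3.26.8 per their processing notes, holds fold changes, p-values and 10 columns of normalized values per library, and was not used.

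The packages were DESeq2 1.42.0, limma 3.58.1 and edgeR 4.0.16 under R 4.3.3, and Python 3.11.15 with numpy 2.4.6, pandas 2.3.3 and matplotlib 3.10.9 drew the figures. After the filter of 0.5 cpm in at least 3 libraries, TMM-scaled counts entered the quasi-likelihood test of edgeR, GUCY2Chi against GUCY2Cmed, with no term for the mouse and Benjamini-Hochberg adjustment over 15703 genes, at 0.01. The biological coefficient of variation was 0.458. Exact two-sided permutation tests used log2 cpm with a prior count of 2. A fold of a gene at few counts depends on the prior count and is no bound.

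Per the labels the 5 mice were sorted into both groups, but no label ties a number to a mouse, and equal numbers were taken as the same mouse. Deviations from the group means correlated between same-numbered libraries at -0.11, -0.223, 0.272, -0.124 and 0.061 for mice 2, 7, 12, 14 and 15. The alternatives were the mouse as block, limma-voom, voomWithQualityWeights, DESeq2, other scalings, filters and thresholds, and libraries left out. All 10 genes were named, with every gene called in the pathway and secretory fate lists (up to 10 per list and direction) and the most abundant gene of each role, and others were named after their values were seen. A result that this rule would name is not reported here. The genes and lists were chosen with earlier results of these data known. Promoters came from RefSeq, GRCm38.p6.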

Additional observations from a re-analysis of the deposited data

Results flagged for a closer look

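Atoh1 in the GUCY2Chi library of mouse 2 was far from the other 4 GUCY2Chi libraries, at 69.8 cpm against 14.8 to 21.2 cpm. Its gap to the nearest library took 0.768 of the range of the group on the log2 scale. Chance marks about 1 in 20 groups of libraries in this way, and 20 were examined, 2 for each of the 10 genes. The same library had the highest goblet, Paneth and stem cell marker sums among GUCY2Chi cells, at 23549, 46597 and 1163 cpm, where the others had at most 9844, 29675 and 773 cpm. Hes6 and Dll4 were also highest in that library, at 238 and 47.7 cpm.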

How the results depend on the processing

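Dll4 and Jag2 kept their direction and call under every alternative that gave a value, with log2 fold changes of 1.95 to 2.59 and 3.37 to 4.07, and between 2 and 3 of the 10 genes were called with each library left out. Scaling by library size alone moved the median of all genes by 0.294 and the calls to 2910 higher and 557 lower, from 2186 and 1381 (83.9% higher against 61.3%). Relative to the median, Hes1 was at -1.57 under that scaling and -1.56 before, although its adjusted p rose to 0.0104.

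With the mouse as replicate block, edgeR called 1294 genes higher, 779 lower and 7 of the pathway genes instead of 11. Besides the calls of Hes1, Aph1c, Maml3, Itch and Dtx3 it changed no other call of a gene named. At an adjusted p of 0.05 there were 3367 genes higher and 2767 lower. Lower genes numbered 2235 with DESeq2, 2388 with voomWithQualityWeights and 2186 without the GUCY2Chi libraries of mice 12 and 15. With each library left out, 512 to 1609 genes were lower and 7 to 13 pathway genes were called, 7 without mouse 2 or 14 of either group. Of 31 pathway genes that met a minimum of 10 counts in every library, 5 were called, among them Psen2, which the main fit did not call. Of 9 secretory fate genes that met it, 3 were called. This minimum gave no value for Neurod1 and Insm1, with as few as 7 counts, nor for Dll3, Jag2 and Notch2.

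Dll3 turned to -0.19 with voomWithQualityWeights, -0.40 without the GUCY2Chi libraries of mice 12 and 15, -0.12 without both libraries of those mice, -0.58 also without GUCY2Chi of mouse 2 (an alternative chosen after seeing the data), and -0.37 to 0.43 with each library left out. Notch1 turned to 0.19 under library size alone, 0.019 with the minimum of 10 counts, 0.23, 0.09 and 0.12 in those 3 left-out settings, and -0.24 to 0.033 with each library left out. Atoh1 turned to -0.52 in the last of the 3 settings and ranged from -0.35 to 0.48 with each library left out. The cause of these changes was not tested. Counts were few for Dll3, Jag1, Notch1 and Notch2, at most 48 per library.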

Other observations

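Of cell types other than enteroendocrine cells, myeloid and B cell markers summed to 24.6 to 110 cpm in GUCY2Chi and 4.82 to 8.11 cpm in GUCY2Cmed cells. Of their 8 tested genes, 1 was called higher, and the median log2 fold change was 0.033. Tuft cell markers, of another secretory lineage, summed to 54.5 to 101 cpm against 34.1 to 46.6 cpm, with 1 of 10 tested genes called higher and 1 lower. Of all genes tested, 13.9% were called higher and 8.79% lower. Astrocyte markers summed to 67.6 to 117 cpm and 75.7 to 116 cpm.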
